A study of Sus scrofa with 6 samples.

Results

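Genes typical of connective tissue were read out in 6 pig (Sus scrofa) keratinocyte clones: SPARC, FN1, VIM, SDC2, DCN, PRRX1 and PLXDC2. They were taken as the rows of the deposited value table whose only gene symbol in the array annotation is one of these names. That gave 7 genes with 14 probe sets, of 6765 genes and 23999 probe sets in all, and a gene was represented by its probe set with the highest mean over the 6 arrays. The genes were selected on earlier results of these same 6 arrays, their log2 values per clone and their tissue differences, so both are a description here and carry no test.

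The study compared 3 clones from the central cornea (cornea 1, 2 and 3, from tissue 6 mm away from the limbus) with 3 from the conjunctiva (conjunctiva 1, 2 and 3). All were keratinocytes of white domestic pigs, expanded over irradiated mouse fibroblasts (the 3T3-J2 line) as feeders, and each clone was founded by 1 isolated cell. The labels name no treatment, while the array run files carry an irradiation time course as their project name. The labels name 2 animals without saying which clone came from which, and give no age. Each clone was measured on 1 Affymetrix porcine array as log2 values from the robust multi-array average (RMA), so a clone has no repeat measurement and a difference between 2 clones has no replicate check. In a bulk array of cultured cells, fewer cells that express a gene and less RNA per cell cannot be told apart, and feeder RNA was not measured separately.

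The 7 genes are known best from fibroblasts and other mesenchymal cells. SPARC is a secreted collagen-binding matricellular protein, fibronectin (FN1) is a large adhesive glycoprotein that cells assemble into fibrils through integrins, and decorin (DCN) is a small proteoglycan that binds collagen fibrils in stroma, including that of the cornea. Syndecan-2 (SDC2) is a membrane heparan sulfate proteoglycan, PLXDC2 a membrane protein with a plexin domain, vimentin (VIM) the intermediate filament of mesenchymal cells, and PRRX1 a homeobox factor of mesenchyme. Keratinocytes in culture are known to make some of these proteins as well.

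Most epithelial markers were bright in all clones, with a median over the list of 8.42 to 9.59 per clone. Of 14 measured keratinocyte markers, 12 lay above the array median (4.4 to 4.478 on the 6 arrays) in every clone, among them the cell junction genes DSP, CDH1 and PERP. The exceptions were ITGA6, below it in all clones, and CDH3, above it in 5. The array median is a low line for genes read by their brightest probe set. PRRX1, with a mean of 4.59, was above only 28.2% of all genes in mean. The keratin genes KRT5 and KRT14 and the factor gene TP63 were not analysed here. The 3' minus 5' signal of the actin control, a measure of RNA quality, ran from 0.46 to 1.11 over the clones (log2), and that of GAPDH from -0.13 to 0.42. Cornea 2 stood apart in genes of dividing cells, at 1.12 below the mean of all clones over 18 measured genes, where the other clones lay between -0.01 and 0.45.

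The matrix genes did not rise and fall as a block. Cornea 3 had the lowest SPARC, PLXDC2, DCN and VIM of all clones and yet the next to highest FN1 and SDC2. Conjunctiva 2 had the highest SPARC, FN1, SDC2 and DCN. Conjunctiva 1 had the lowest FN1, SDC2 and PRRX1 but a SPARC value close to that of cornea 1. The tissue ranges did not overlap for 1 of the 7, PRRX1, beside 6.71% of all genes, so overlap was the rule among the members and among all genes.

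**Figure D1:**
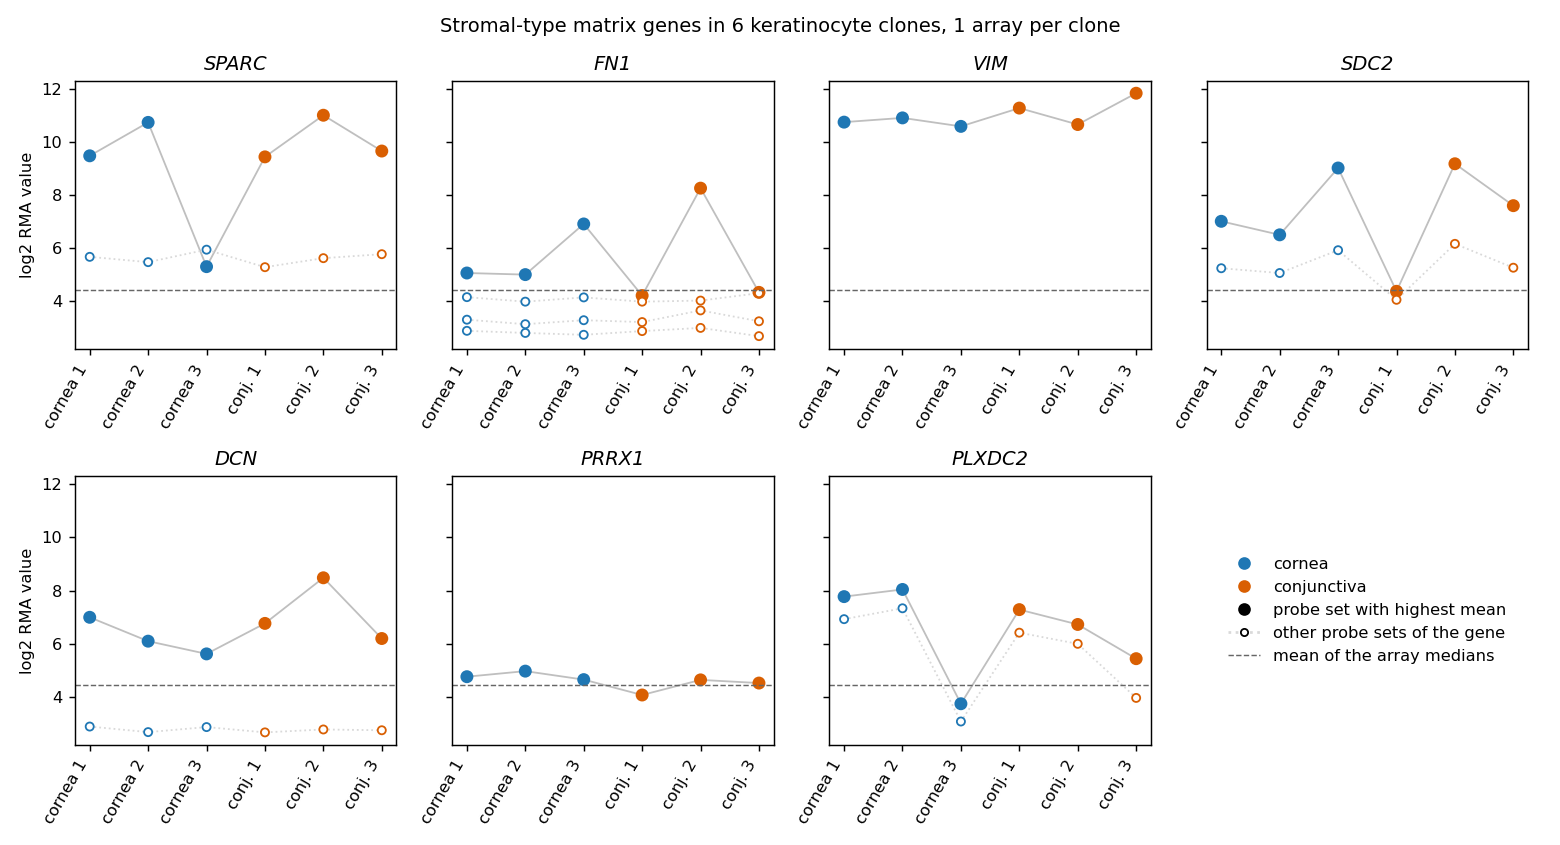
Log2 RMA value (vertical axis) of each gene in the 6 clones (horizontal axis), with filled points for the probe set that represents the gene, open points for its other probe sets and a dashed line at the mean of the array medians. SPARC and PLXDC2 drop in cornea 3, at 5.31 and 3.73, whereas SDC2 is high there, at 9.03, and drops in conjunctiva 1, at 4.38.

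Among the secreted glycoproteins, SPARC was at 9.49, 10.75 and 5.31 in cornea 1, 2 and 3 and at 9.45, 11.02 and 9.67 in conjunctiva 1, 2 and 3 (log2 RMA value). A clear signal was present in 5 clones, while cornea 3 stood 4.15 below the next lowest clone, a 17.7-fold gap. From cornea 3 to conjunctiva 2 the span was 52.4-fold, the fifth widest range of the 6765 genes (rank 5). As tissue means SPARC stood at 8.51 ± 2.85 in cornea and 10.05 ± 0.85 in conjunctiva (SD, n = 3), a difference of 1.53 (SE 1.33) that became -0.07 without cornea 3. The tissue difference in SPARC was thus that of 1 corneal clone.

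The other SPARC probe set did not follow. It stayed between 5.29 and 5.95 over all clones, was highest in cornea 3 and correlated at r = -0.62 with the brighter set (Spearman rho -0.31, 6 clones). The drop of SPARC in cornea 3 therefore rests on 1 probe set.

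FN1 was at 5.07, 5.01 and 6.92 in the corneal clones and at 4.22, 8.27 and 4.34 in the conjunctival clones. Conjunctiva 2 was 2.55-fold above the next clone, cornea 3, and 16.6-fold above conjunctiva 1. Conjunctiva 1 and 3 lay below the medians of their arrays. The tissue means were nearly equal, at 5.67 ± 1.09 in cornea and 5.61 ± 2.30 in conjunctiva, a difference of -0.06 (SE 1.14), and the difference ran from -1.39 without conjunctiva 2 to 0.64 without conjunctiva 1. The clones of each tissue were thus farther apart than the tissues.

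FN1 had 3 further probe sets, all below the array median in every clone. A set of these of these was also highest in conjunctiva 2, at 3.66 against 3.14 to 3.31 in the other clones, and correlated at r = 0.83 (rho 0.77) with the bright set. The other two had ranges of 0.31 and 0.32 and gave r = 0.46 and -0.21.

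DCN, the proteoglycan of collagen fibrils, was at 6.99, 6.09 and 5.61 in the corneal clones and at 6.76, 8.48 and 6.19 in the conjunctival clones. Conjunctiva 2 again stood apart, 2.82-fold above cornea 1, and the remaining 5 clones lay within 1.38 of each other. The means were 6.23 ± 0.70 in cornea and 7.14 ± 1.19 in conjunctiva, a difference of 0.92 (SE 0.62) that was 0.25 without conjunctiva 2. The other DCN probe set was dim in all clones (2.65 to 2.87) and did not follow the clone pattern (r = -0.01, rho 0.14).

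Among the membrane proteins, SDC2 was at 7.02, 6.51 and 9.03 in the corneal clones and at 4.38, 9.19 and 7.61 in the conjunctival clones. Its signal was near the array median in conjunctiva 1, which stood 4.37-fold below the next clone and 28.0-fold below conjunctiva 2. The highest clones, conjunctiva 2 and cornea 3, came from different tissues and were only 0.16 apart. The tissue difference of -0.46 (SE 1.25) turned to 0.88 without conjunctiva 1 and to 0.30 without cornea 3, and was -1.52 without conjunctiva 2.

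Both SDC2 probe sets gave the same pattern. The dimmer set was at 5.25, 5.07 and 5.93 in cornea and at 4.06, 6.17 and 5.27 in conjunctiva, put the 6 clones in the same order (rho 1.0) and correlated at r = 0.99. Its range was narrower, at 4.33-fold.

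PLXDC2 was at 7.77, 8.04 and 3.73 in the corneal clones and at 7.28, 6.72 and 5.43 in the conjunctival clones. As with SPARC, cornea 3 was lowest, here 3.24-fold below conjunctiva 3 and 19.8-fold below cornea 2, and was the only clone below the median of its array. With so dim a value in cornea 3, the folds against it are best read as lower limits. Unlike SPARC, conjunctiva 3 was low as well, 2.45-fold below conjunctiva 2. The means of 6.52 ± 2.41 and 6.48 ± 0.95 in cornea and conjunctiva gave a difference of -0.04 (SE 1.16). It was -1.43 without cornea 3 and 0.72 without cornea 2. The other PLXDC2 probe set gave the same order of clones (rho 1.0, r = 0.98), from 3.06 in cornea 3 to 7.33 in cornea 2.

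VIM, the filament gene, was bright in every clone. It was at 10.76, 10.92 and 10.60 in the corneal clones and at 11.29, 10.67 and 11.85 in the conjunctival clones. The 3 corneal values lay within 0.32, whereas the conjunctival ones spanned 1.18, with conjunctiva 3 at the top, 1.48-fold above conjunctiva 1. The difference of 0.51 (SE 0.29) kept its sign without each clone in turn and was smallest, at 0.22, without conjunctiva 3. VIM had 1 probe set.

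PRRX1, the transcription factor gene, was dim and varied least. It was at 4.75, 4.96 and 4.64 in the corneal clones and at 4.06, 4.63 and 4.51 in the conjunctival clones, so that 5 clones lay just above the medians of their arrays and conjunctiva 1 below. It was the gene whose tissues did not overlap, but cornea 3 and conjunctiva 2 differed in the second decimal only. The difference was -0.38 (SE 0.18), and -0.21 without conjunctiva 1. PRRX1 had 1 probe set.

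**Figure D2:**
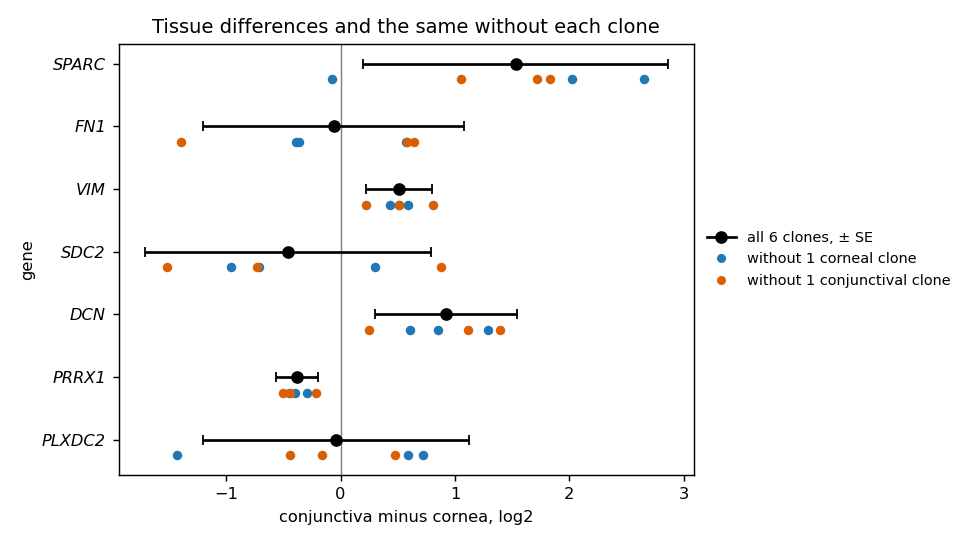
Conjunctiva minus cornea (horizontal axis, log2) for each gene (vertical axis), as black points with the standard error for all 6 clones, and as coloured points without each clone in turn. The sign turned without 1 clone for SPARC, FN1, SDC2 and PLXDC2 and held for VIM, DCN and PRRX1.

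Set against all genes, the members were chosen for such spreads, so the shares are only a scale. A range of at least 2-fold over the clones was seen in 6 of the 7 members, PRRX1 being the exception at 1.88-fold, and in 16.5% of all genes, whose median range was 1.49-fold. At 4-fold it was 5 of 7, without VIM and PRRX1, beside 2.96% of genes. Conjunctiva 2 was at least 2-fold above the next clone for FN1 and DCN, 2 of 7, where any clone stood out so at the top for 1.15% of genes. The lowest clone was at least 2-fold below the next for SPARC, SDC2 and PLXDC2, 3 of 7, and for 1.2% of genes.

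Conjunctiva 2, cornea 3 and cornea 2 stood apart in other genes as well, and conjunctiva 1 did so in fewer genes. Conjunctiva 2 was the top clone for 35 of the 78 genes with such a gap above, and cornea 3 the bottom clone for 34 of the 81 with such a gap below, the highest counts of the 6 clones. Conjunctiva 1, where SDC2 was apart, was the top clone for 4 and the bottom clone for 4. For cornea 2 these counts were 18 and 21. In cornea 3 the gap reached 4-fold for 6 genes, among them SPARC, the vitamin B12-binding protein gene TCN1 and the calcium-binding protein gene S100A4. Conjunctiva 2 ran on fluidics station 1, with cornea 1 and conjunctiva 3, and cornea 3 on station 2, with cornea 2 and conjunctiva 1. Within stations, with 1 array of a tissue in each, the differences were 0.85 and 1.43 for SPARC, 1.23 and -1.75 for FN1, 1.38 and -3.39 for SDC2, 0.35 and 0.91 for DCN, 0.51 and 0.53 for VIM, -0.17 and -0.74 for PRRX1 and -1.69 and 1.39 for PLXDC2 (stations 1 and 2). The part of the station in the clone values was not tested.

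**Figure D3:**
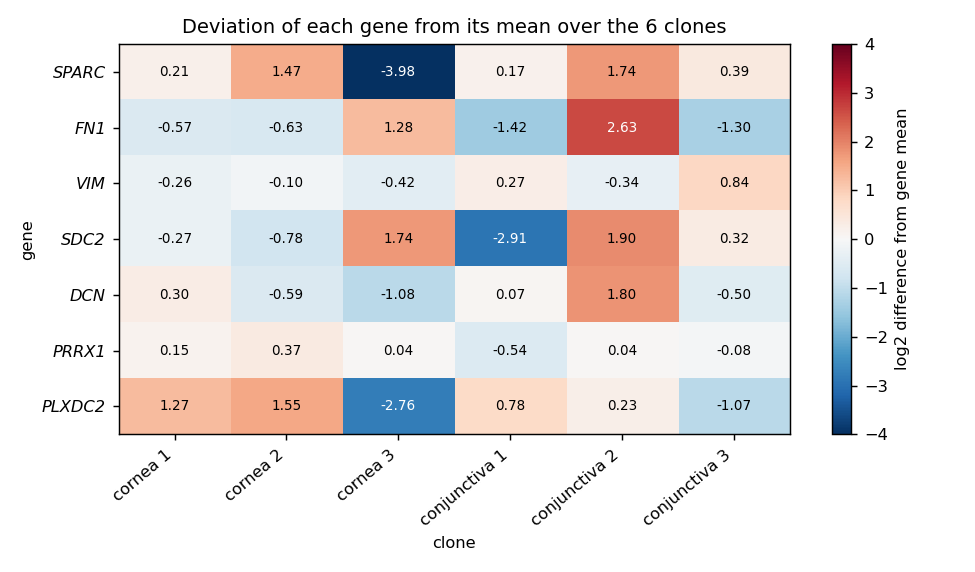
Difference of each gene (rows) in each clone (columns) from its own mean over the 6 clones, in log2 units, red above and blue below. Cornea 3 combines -3.98 for SPARC and -2.76 for PLXDC2 with 1.28 for FN1 and 1.74 for SDC2, while conjunctiva 2 is above the mean for 6 of the 7 genes.

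Counted by clone, conjunctiva 2 lay above the gene's own mean for 6 of the 7, with VIM the exception at -0.34, and its median deviation was 1.74. Cornea 3 lay below it for 4 of 7, with a median deviation of -0.42. Cornea 1 was neither highest nor lowest for any member, and cornea 2 was highest for PRRX1 and PLXDC2. Between clones of the same number, conjunctiva was higher than cornea in 2 of 3 pairs for SPARC, VIM and DCN, in 1 of 3 for FN1, SDC2 and PLXDC2 and in 0 of 3 for PRRX1. For SPARC these differences were -0.04, 0.27 and 4.37, the last with cornea 3.

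Whether the genes moved together was described by correlations over the 6 clones, some of which share an animal and a fluidics station, and are given without a test. Of the 21 pairs of members 11 were above 0 and 10 below, with a median r of 0.112. Over the 521731 pairs of the 1022 genes of at least median brightness and at least 2-fold range, the median was 0.0269. An absolute r of at least 0.7 was reached by 3 member pairs (14.3%) and by 18.5% of those gene pairs. The share of pairs above 0 was 52.4% among members and 51.7% among those genes.

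FN1 and SDC2 tended to be high in the same clones. Their r was 0.81 and rho 0.83, leaving out each clone in turn gave 0.76 to 0.92, and deviations from the tissue means gave 0.81. With the other SDC2 probe set r was 0.85, but the 3 dim FN1 probe sets gave 0.62, 0.36 and -0.03 with the brighter SDC2 set. Without the 2 clones farthest from the median of FN1 it fell to 0.42 over 4 clones, so the size of the relation rests on those clones and on the bright FN1 probe set.

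SPARC and PLXDC2 also had an r of 0.81, but a rho of 0.37. Without cornea 3 the r was 0.15, so this relation rested on the clone in which both were low. The dimmer SPARC probe set gave the opposite sign, at r = -0.79 and -0.78 with the PLXDC2 sets. VIM ran against FN1, at r = -0.70 and rho -0.89, with -0.79 to -0.64 when each clone was left out. The dim FN1 probe sets gave -0.39, -0.51 and 0.49 with VIM. SDC2 and PLXDC2 were opposed at r = -0.58 and rho -0.66, and SPARC and DCN had an r of 0.62 and a rho of 0.49. That sign turned with the dimmer SPARC set, at r = -0.29, and with the dim DCN set against the brighter SPARC set, at -0.55. SPARC and FN1 changed sign with 1 clone, from r = -0.14 in all to 0.77 without cornea 3 and -0.86 without conjunctiva 2.

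**Figure D4:**
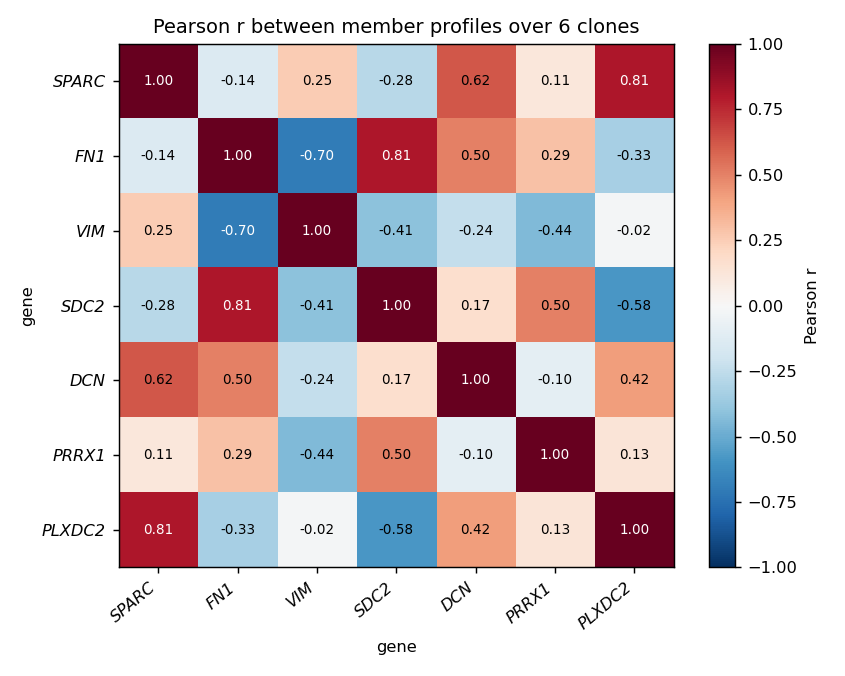
Pearson r over the 6 clones for each pair of genes (rows and columns), red above 0 and blue below. The pairs FN1 with SDC2 and SPARC with PLXDC2 are at 0.81, and FN1 with VIM is at -0.70.

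For each gene the closest profiles were sought among the 1022 genes of at least median mean that varied at least 2-fold. Over all pairs of these genes r ran from -0.998 to 0.999, and 18.5% had an absolute r of at least 0.7. The closest of so many profiles over so few clones can reach a high r without any relation. The closest genes, also those for the mean profile, are thus a description and carry no test. For SPARC the closest were S100A4 (r = 0.984, rho 0.89), TCN1 (0.958, rho 0.71) and the polarity gene DLG5 (0.956, rho 0.49). S100A4 was at 9.86, 10.84 and 7.44 in cornea and 9.51, 10.58 and 9.69 in conjunctiva. For PLXDC2 the closest were METRNL, which encodes a secreted factor (0.991), the cathepsin gene CTSH (0.985) and the homeodomain-only gene HOPX (0.98). Their rho was 0.94 to 1.0. METRNL ran from 6.63 in cornea 3 to 8.13 in cornea 2, in the same order of clones as PLXDC2.

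For FN1 the closest were HAAO (0.972, rho 0.6), WFDC2 (0.963, rho 0.94) and the tetraspanin-like gene TM4SF1 (0.958, rho 0.6). For SDC2 they were UBE4A (0.943, rho 0.94), GSTO1 (0.927, rho 0.83) and HNRNPL (0.926, rho 0.94). DCN was closest to USP18 (0.95, rho 0.83), BHLHE40 (0.947, rho 0.94) and the interferon gamma receptor gene IFNGR1 (0.933, rho 0.89). VIM was closest to SLC5A6 (0.942), TFPI (0.941) and GNPDA1 (0.9), each with a rho of only 0.6. PRRX1 was closest to ARHGDIB (0.92, rho 0.6), ADD3 (0.915, rho 0.54) and the simple-epithelium keratin gene KRT8 (0.915, rho 0.94). No member was among the 3 closest of another, which follows largely from the size of the search, as the highest r between members was 0.807. PRRX1 varied less than 2-fold and could not be listed for another member. With the mean standardised profile of the 7, CLU, which encodes clusterin, had the highest r (0.971, from 7.41 in cornea 3 to 11.39 in conjunctiva 2), followed by AGA, MYOM2, COPZ2, RCAN1, CCPG1, SLC6A8, ECHDC2, NQO1 and NAXD (0.863 to 0.963). MTHFD2, ODC1, CTH, TACO1 and IPO5 had the lowest (-0.902 to -0.867).

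Fibroblast genes lay partly above and partly below the array median, with a median over the list of 4.75 to 5.12 per clone. Of 28 listed fibroblast and keratocyte markers 22 were measured, 4 of them members. Of the 22, 12 lay above the array median in all clones, the members SPARC, VIM and DCN among them, and 8 below it in all. Most genes lie above this line in mean, so the 12 are no excess of bright genes. Below it were COL3A1 (4.08 to 4.38), COL5A2, COL6A3, the keratocyte proteoglycan gene LUM (2.82 to 2.95), TWIST2, FAP, POSTN and MMP2. COL1A2, a chain of the main fibrillar collagen, was above it, at 7.81, 6.77 and 7.36 in cornea and 6.40, 6.83 and 7.41 in conjunctiva. COL1A2 was not low in cornea 3 nor high in conjunctiva 2, and its r with SPARC was -0.35. Some other markers ran closer to single members, and the higher values are given here. The r was 0.78 for THY1 and 0.98 for S100A4 with SPARC, and 0.87 for THY1 with DCN. It was 0.80 for COL5A1 with SDC2, where rho was 0.31, and 0.80 for COL3A1 with PLXDC2. COL3A1 was dim and had a range of only 0.29. The dim LUM ran the other way, at r = -0.68 with SPARC and -0.72 with DCN.

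Without the 4 members in that list, the mean deviation of the other 18 was -0.02, 0.06 and 0.07 in cornea 1, 2 and 3 and -0.20, 0.07 and 0.01 in conjunctiva 1, 2 and 3. Conjunctiva 1 was thus lowest, where FN1, SDC2 and PRRX1 were lowest too, and COL5A1 at 5.36 against 6.23 to 6.72 in the others. That clone was also lowest over the keratinocyte markers, at -0.33, and the endothelial markers, at -0.14, so this was not particular to fibroblast markers. Over smooth muscle and pericyte markers (0.14) and genes of dividing cells (0.29) conjunctiva 1 was not lowest. Its array had the lowest median, at 4.4, and centring shifted no array by more than 0.0431. The summed linear signal of all 22, the 4 members included, ran from 3445 to 8607 in cornea and from 6363 to 11044 in conjunctiva. It mostly reflects the brightest genes, THY1, SPARC, VIM and S100A4, of which SPARC and VIM are members. Of the 18, 6 varied at least 2-fold. THY1, a surface glycoprotein gene, was lowest in cornea 3 (9.66) and highest in conjunctiva 2 (12.24), as SPARC and DCN were. The part of fibroblasts or feeder cells in the clone values was not tested.

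**Figure D5:**
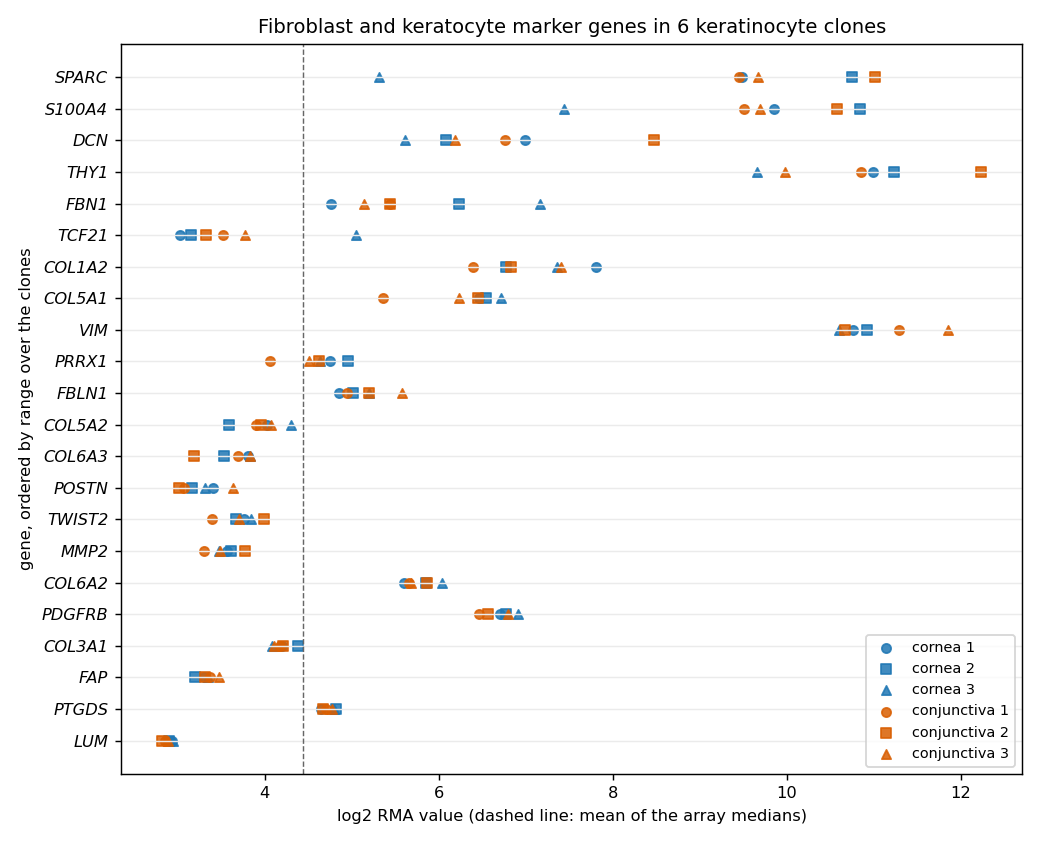
Log2 RMA value (horizontal axis) of the 22 measured fibroblast and keratocyte markers (vertical axis, ordered by range) in each clone, with the tissue as colour, the clone number as symbol and a dashed line at the mean of the array medians. SPARC, S100A4, DCN and THY1 spread widely with cornea 3 at the low end. FBN1 and TCF21 have cornea 3 at the high end, at 7.17 and 5.05, while COL3A1, LUM and FAP stay to the left of the line.

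Other cell types were examined the same way. Among melanocyte markers the pigment enzyme genes TYR (3.75 to 4.05) and TYRP1 (2.70 to 2.91) lay below the array median in all clones, while SOX10 (4.45 to 4.85), EDNRB (4.95 to 5.31) and SLC45A2 (4.57 to 5.32) lay above it and MITF reached 5.10 in cornea 2. GPNMB, a membrane glycoprotein gene, was at 4.92 in cornea 3 and 4.61 in conjunctiva 3 against 6.95 to 8.48 in the others, and had an r of 0.92 with PLXDC2. Of 9 melanocyte markers 1 varied at least 2-fold, of 11 endothelial markers 1, and of 14 leukocyte and 4 Schwann and neural markers 0, beside 16.5% of all genes. Many of these were dim, with 8 of the 11 endothelial and 13 of the 14 leukocyte markers below the median of all probe sets in mean. Of 9 smooth muscle and pericyte markers 3 varied at least 2-fold, TAGLN from 8.01 in conjunctiva 3 to 10.86 in cornea 1. Of the 14 keratinocyte markers 9 did, and of the 18 genes of dividing cells 15. The summed linear signal of the melanocyte list ran from 220 to 540 in cornea and from 199 to 358 in conjunctiva, and the part of these cell types in the members' values was not tested.

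Related genes of the matrix were read from fixed lists, and no gene of any list passed in either direction between the tissues. By limma 0 of 23999 probe sets passed adjusted p 0.05 (0.0%), with 648 at an unadjusted p under 0.05, and without moderation it was also 0, with 750. Over all genes 53.5% had a higher mean in conjunctiva, the share to set beside the counts of each list. Of 19 genes of adhesive and matricellular glycoproteins, 7 had a higher and 12 a lower mean in conjunctiva. Their median difference was -0.06 beside 0.014 over all genes, and 10 varied at least 2-fold. Osteopontin (SPP1) was at 7.60 in conjunctiva 2, the top clone of FN1 and DCN too, and at 3.59 to 4.56 elsewhere. The lowest clone differed among these genes. Thrombospondin (THBS1) was at 8.07, 8.23 and 6.72 in cornea and 7.20, 8.21 and 5.11 in conjunctiva, and the microfibril gene MFAP5 ran from 5.03 in conjunctiva 3 to 9.84 in cornea 1. Fibrillin (FBN1) was at 4.76, 6.23 and 7.17 in cornea, highest in the clone lowest in SPARC, and at 5.14 to 5.44 in conjunctiva.

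Close relatives of the members were mostly flat or dim. Among 5 small leucine-rich proteoglycans, 1 higher and 4 lower in conjunctiva, DCN alone varied at least 2-fold, and BGN lay between 5.14 and 5.59. Among 6 heparan sulfate proteoglycans, 1 higher and 5 lower, SDC1 was lowest in cornea 3 and conjunctiva 3 (8.77 and 8.72, and 9.60 to 9.88 in the others) and SDC4 ran from 6.53 to 7.32. SDC2 and SDC1 were thus not low in the same clones. Of 7 mesenchymal transcription factor genes, 2 higher and 5 lower, 5 had a mean below the median of all probe sets, and TCF21 reached 5.05 in cornea 3 against 3.03 to 3.78 elsewhere. Of 6 non-keratin filament genes 4 were higher, with LMNB1 lowest in cornea 2 (5.41), the clone with low levels of genes of dividing cells.

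Collagens and their processing enzymes are the machinery of the stromal fibril. Of 9 fibroblast collagens 3 were higher and 6 lower in conjunctiva, and 3 varied at least 2-fold: COL1A2, COL5A1 and COL15A1, which was at 5.37 in conjunctiva 2 and at 3.25 to 3.50 elsewhere. COL15A1 was thus highest in the clone highest in FN1 and DCN, and COL1A2 and COL5A1 were lowest in conjunctiva 1, as FN1, SDC2 and PRRX1 were. Of 12 collagen processing genes 6 were higher, and PLOD1 was highest in conjunctiva 3 (9.36), as VIM was. Of 10 fibronectin and matrix receptor genes 5 were higher, with the fibronectin receptor chain ITGA5 at 5.30 to 5.83 in cornea and 5.96 to 6.22 in conjunctiva.

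Of 17 matrix-degrading enzyme and inhibitor genes 9 were higher and 10 varied at least 2-fold. The epithelial protease gene MMP7 was at 11.64 in conjunctiva 2, at 6.23 in cornea 3 and at 4.17 to 4.89 in the others, so the clones highest in MMP7 were those highest in FN1 and SDC2. The collagenase gene MMP1 was lowest in conjunctiva 2, at 9.25 against 11.57 to 12.52. CTSK was at 7.54 and 7.22 in conjunctiva 2 and 3 and at 4.57 to 5.72 elsewhere.

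Of 20 epithelial-mesenchymal transition genes 9 were higher and 11 lower, a split that turned to 12 and 8 with array median centring. Centring also raised the share of all genes higher in conjunctiva, from 53.5% to 59.5%. Of 11 TGF-beta signalling genes 6 were higher. Among keratins, KRT19 was high where SDC2 was, at 7.01, 8.29 and 10.36 in cornea and 7.15, 10.44 and 9.36 in conjunctiva (r = 0.86, rho 0.83 with SDC2). KRT18 was lowest in conjunctiva 1 (5.64) and highest in conjunctiva 2 (8.61), the clones at the ends of the SDC2 range.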

How the data were processed

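RNA of 6 clones was measured on 1 porcine array each. The deposited log2 values were made by the authors with RMA, per the submitters' processing notes; its version was not given in the sources used here. RMA quantile-normalises arrays, so a change in total RNA cannot be seen. The other deposited files, array run settings, gave the fluidics station and module; all arrays were scanned on 1 day. The 124 control probe sets were left out. All 7 members matched RefSeq gene IDs of assembly Sscrofa11.1. The members, lists and alternatives were chosen with earlier results of these data known.

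Conjunctiva was compared with cornea by limma 3.58.1 in R 4.3.3 (lmFit, eBayes, two-sided, Benjamini-Hochberg over all 23999 probe sets, threshold 0.05, no filter on low values), after a test on simulated data. Named were all members, up to 4 genes a list with the largest range among those of at least median mean, the 3 closest profiles of each member, and the 10 highest and 5 lowest for the mean profile. DSP, CDH1, PERP, CDH3, ITGA6, TYR, TYRP1, MITF, TCF21, COL15A1 and the dim fibroblast markers were named after their values were seen. Nothing in the labels says that the clones came from separate cultures, so p-values measure only the spread between these samples. Same-numbered clones deviated together from the tissue means (across probe sets, r was 0.354 for number 1, 0.169 for 2 and 0.349 for 3), so the number was also fitted as a block. Alternatives were array scale, repeated quantile normalisation, leaving out each clone, replicate, station and module blocks, eBayes options, filters, other probe sets and other folds; the count of genes with a lowest clone apart was added after seeing the data. The number of arrays limits the precision.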

Additional observations from a re-analysis of the deposited data

How the results depend on the processing

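By limma 0 probe sets passed, and 0 to 0 without each clone in turn. The replicate block also gave 0, as did the station block and the random module block. Corneal arrays ran on modules 3 and 4 and conjunctival arrays on modules 1 and 2. The module block therefore cannot separate tissue from module. The count passing was 2 with limma's trend and robust options and 1 with 1 probe set per gene, in neither case a member. The replicate block changed no call. The count of members varying at least 2-fold, 6, stayed within 1.5 times under all alternatives run, and so did the 3 with a lowest clone apart. The 2 with a highest clone apart became 0 at 4-fold and 0 for means over all probe sets of a gene. The median correlation of 0.11 ran from -0.13 to 0.15 without each clone, with conjunctiva 1 left out at the lower end. Of 89 alternative values of the members' tissue differences, 18 turned sign. The 3 that moved by more than the spread between clones were SDC2 at -3.39 and PRRX1 at -0.74 within station 2, and DCN at -0.08 for its dim probe set. The cause was not tested.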
